A study of Mus musculus with 12 samples.

Results

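Nsun4, Trim66, Cngb1, Chrnb2 and Bptf are 5 mouse genes in which many m6A peaks were listed for testes of 1 genotype alone. They were chosen by a count, since each had 5 or more peaks in 1 of the 2 deposited peak lists that no peak of the other list overlapped on the same strand. All peaks that the authors annotated to these genes were taken, 56 of the 65355 peaks in both lists, with 27 in the KO list and 29 in the WT list. The genes are 5 of the 17795 genes with a peak.

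The libraries came from testes at postnatal day 18 of males without Alkbh5 (Alkbh5-/-, labelled KO) and of wild-type males (WT). There were 12 libraries, 3 replicates each of KO IP, KO input, WT IP and WT input, where IP is fragmented poly(A) RNA pulled down with an m6A antibody and input is the library it is compared with. The labels give neither the strain nor the deleted part of Alkbh5, and whole testes hold somatic cells beside the germ cells. The data are 1 peak list per genotype, so that no value has a replicate error, and how deeply each library was sequenced is unknown. Alkbh5 itself had 0 peaks in the KO list and 3 in the WT list. Of 13 marker genes of testis cell types, 8 had a KO peak and 9 a WT peak, but a peak list does not give the level of a transcript.

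N6-methyladenosine (m6A) is written on messenger RNA by a methyltransferase complex and can be removed by demethylases, of which Alkbh5 is known for its high level in testis. RNA fragments that carry the mark are enriched in the IP over the input, and a run of enriched fragments is listed as a peak. The 5 genes share no known pathway. Nsun4 encodes an RNA methyltransferase of mitochondria that acts on ribosomal RNA and in ribosome assembly. Trim66 encodes a chromatin reader of the TIF1 family. Cngb1 encodes a subunit of the cyclic nucleotide-gated channel of rod photoreceptors and olfactory neurons, and Chrnb2 a subunit of nicotinic acetylcholine receptors. Bptf encodes the largest subunit of the nucleosome remodeling factor NURF.

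A peak without a same-strand partner in the other list is written KO-only or WT-only, and any other peak is written shared. These counts chose the genes and are given as a description only. The members had 16 KO-only peaks of 27 KO peaks, beside 19.3% of all peaks of the KO list. They had 19 WT-only peaks of 29 WT peaks, beside 21.6% of all peaks of the WT list. The counts fell into 3 patterns. Chrnb2 (7 KO-only, 2 WT-only) and Bptf (6 KO-only, 0 WT-only) had mostly KO-only peaks. Trim66 (1 KO-only, 6 WT-only) and Cngb1 (0 KO-only, 5 WT-only) had mostly WT-only peaks. Nsun4 (2 KO-only, 6 WT-only) had no shared peak at all, while Trim66 and Cngb1 had 3 shared peaks in each list, Chrnb2 1 in each list, and Bptf 4 shared KO and 3 shared WT peaks.

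**Figure D1:**
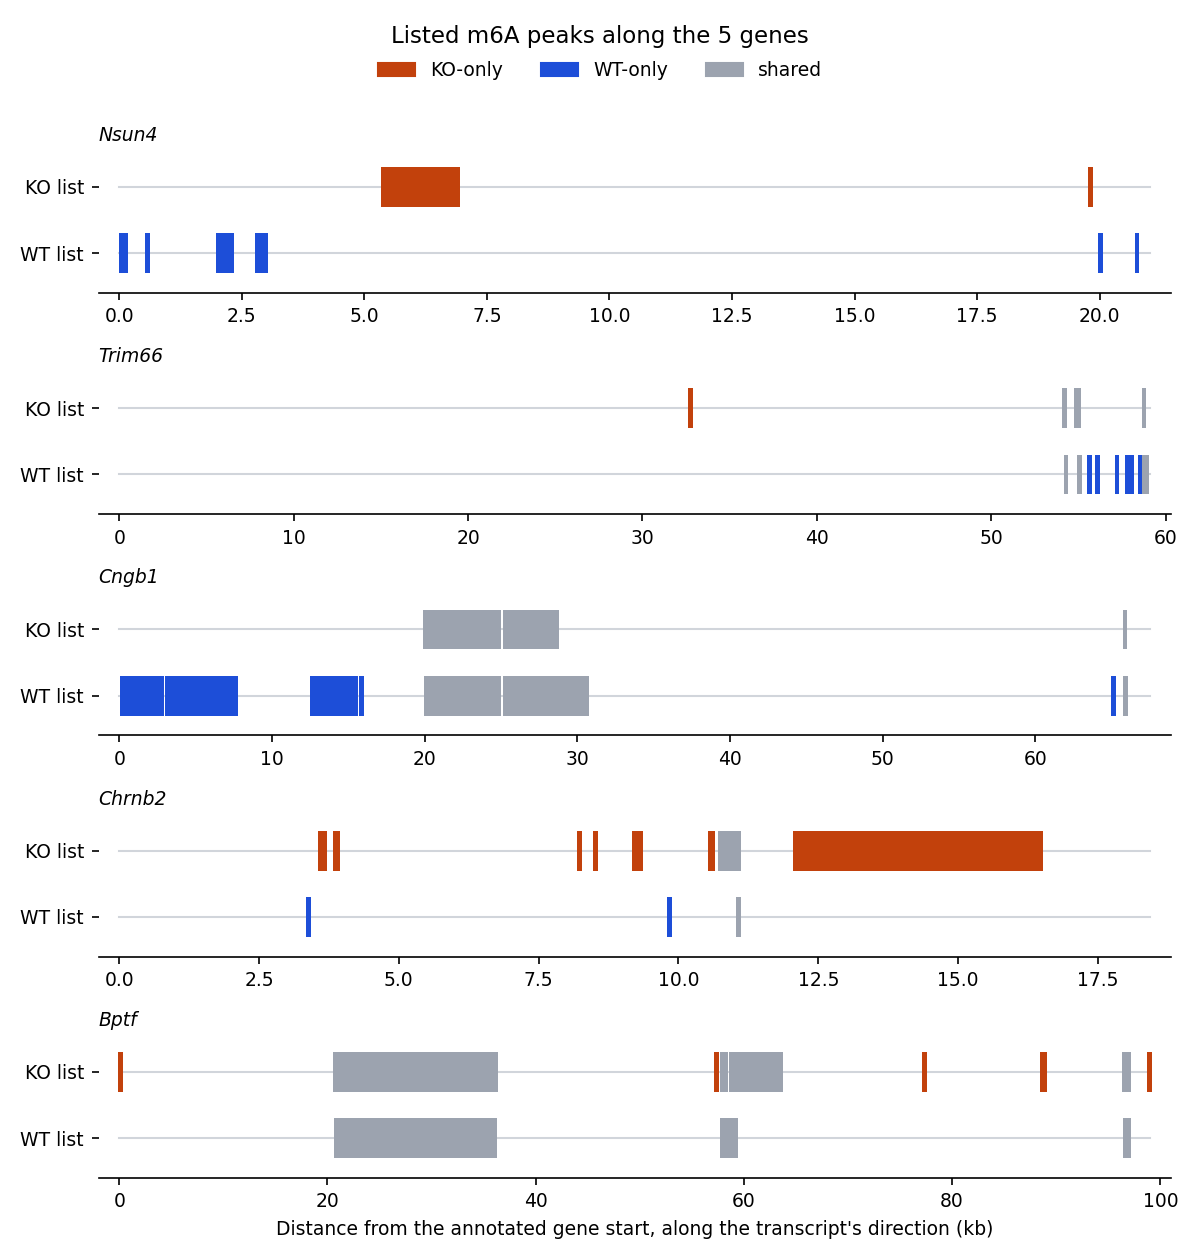
Peaks of the KO list (upper line) and of the WT list (lower line) along each gene, with the distance from the annotated gene start in kb on the horizontal axis. Orange bars are KO-only, blue bars WT-only and grey bars shared peaks, each drawn from its start to its end with introns included, and very short peaks are widened to stay visible. Of the 5 blue bars of Cngb1, 4 lie in the first part of the gene and 1 near its end, those of Trim66 lie in the last part, and the long grey bars of Bptf are in both lists.

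Genotype-only peaks reached the gene start in 3 members. In Nsun4 a WT-only peak and in Bptf a KO-only peak began at the annotated start, and in Cngb1 a WT-only peak began 30 bases inside it. The bases around these peak edges are shown to place them on the transcript, from RefSeq windows of GRCm38.p6, 5′ to 3′ on the minus strand. Capitals mark the first bases inside the peak (30 in Nsun4 and Bptf, 20 in Cngb1, where the window ends), and lower case the bases just before it.
Nsun4, chr4:116053847-116053906: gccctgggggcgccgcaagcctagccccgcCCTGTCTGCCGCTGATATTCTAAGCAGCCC
Cngb1, chr8:95306536-95306565: ggcaattcctGGCTAGCCGCTGACATCTGA
Bptf, chr11:107132098-107132157: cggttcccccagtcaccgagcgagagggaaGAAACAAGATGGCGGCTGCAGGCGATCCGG
The m6A consensus is a short string around the methylated A, and 4 common forms of it were searched on the transcribed strand alone in the first 50 transcribed bases of the RefSeq windows. These were GGACT, with its variant GGACA, and the forms GAACT as well as AGACT. None of the 4 was found there in Nsun4, Cngb1 or Bptf. AGACT was found in Trim66 and Chrnb2 and GAACT in Trim66. The window of Trim66 lies at its RefSeq start (109516759), upstream of the gene span in the files from which the Trim66 distances are counted. Of all 32851 windows 5.14% held AGACT, 4.40% GAACT and 19.4% any of the 4. The absence of these letters from 50 bases bears on these 4 forms and this window alone. Other forms of the consensus were not searched, and the bases shown may hold them. No genome was at hand to read the rest of the peaks.

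Nsun4 (ENSMUSG00000028706) lies on the minus strand of chromosome 4, from 116032842 to 116053876 in GRCm38. Its KO and WT peaks did not overlap anywhere. In the KO list a long peak of 1609 bases (116046934 to 116048542) had a fold enrichment of IP over input of 2.46 and a log10 FDR of -9.16, where FDR is the false discovery rate of the peak. All folds, p-values and FDRs of peaks are those the authors listed. The other KO-only peak (116034040 to 116034100) had a fold of 1.64 and a log10 FDR of -1.74. The long peak was the only genotype-only peak of the 5 genes with an FDR below 1e-05. It was annotated to the 3' UTR of the transcript ENSMUST00000165493, although it lay 5334 bases from the gene start and 14092 bases from the gene end.

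The 6 WT-only peaks of Nsun4 stood at both ends of the gene. A peak at the gene start in the 5' UTR (116053696 to 116053876) had a fold of 8.33 and a log10 FDR of -2.65. Further along the transcript lay a coding peak of 61 bases with a fold of 7.41, a coding peak of 360 bases with a fold of 8.33 and a peak of 270 bases with a fold of 8.33. These 3 peaks had the highest FDR values of the gene, with a log10 FDR of -0.602 for the first and -0.82 for the other 2. The peak of 270 bases was annotated to the 3' UTR of the transcript ENSMUST00000165493, although it lay 2760 bases from the gene start and 18005 bases from the gene end. At the end of the gene, WT-only peaks of 61 bases had folds of 1.95 (log10 FDR -1.26) and 1.73 (log10 FDR -1.72). The peak of fold 1.73 ended 148 bases from the short KO-only peak, so that short peaks of both lists stood side by side in the 3' UTR. In bases, the order of the lists was the reverse of that by number, with 1670 bases in the 2 KO-only peaks and 994 bases in the 6 WT-only peaks. The reversal rests on the long KO-only peak, which held 1609 of the 1670 bases. Spans run from first to last base and take in any introns.

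Trim66 (ENSMUSG00000031026) lies on the minus strand of chromosome 7, from 109449006 to 109508134. Its 6 WT-only peaks lay between 2 shared KO peaks in the 3' UTR. The KO list had a peak at 109449276 to 109449455 (fold 12.6, log10 FDR -2.28) and a peak at 109452960 to 109453409 (fold 18, log10 FDR -3.74), with 3504 bases between them and no peak there. In this interval the WT list had 6 peaks of 61 to 301 bases, which covered 905 bases. Their folds in order along the transcript were 5.55, 8.95, 3.70, 6.48, 3.39 and 2.08. The peak of fold 8.95 (109451881 to 109452181) had the lowest FDR of all WT-only peaks of the 5 genes, with a log10 FDR of -4.60. The peak of fold 2.08 (log10 FDR -1.01) stood 59 bases from a shared WT peak, and it was the only 1 of the 6 with an FDR above 0.05.

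The shared peaks of Trim66 had different listed values in the 2 lists. Along the transcript the 3 KO peaks had folds of 9.02, 18 and 12.6, and the 3 WT peaks they overlapped had folds of 2.65, 5.25 and 4.01. Folds of different lists were not compared by a test, since no value per library was used. The KO values were among those that many peaks of the list share. In the KO list 457, 63 and 178 peaks carried exactly the same fold, p and FDR as these 3 peaks, against 21, 3 and 7 peaks of the WT list for the WT values. The part of such repeated values in the folds was not tested. The single KO-only peak of Trim66 lay far away in a coding exon (109475241 to 109475510, fold 8.12, log10 FDR -1.11), 21292 bases from the nearest other peak of the KO list.

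**Figure D2:**
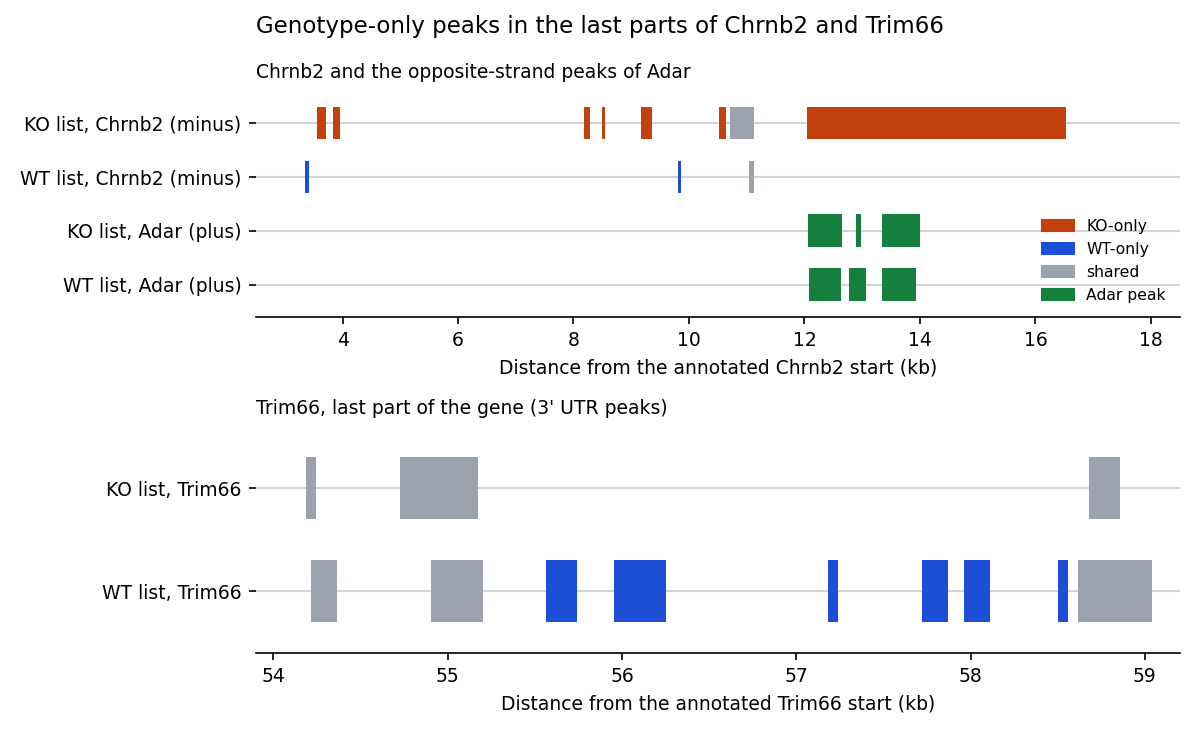
Upper part, peaks of Chrnb2 on the minus strand and the peaks of Adar on the plus strand that overlap its long KO-only peak, against the distance from the Chrnb2 start in kb. Lower part, peaks in the last part of Trim66 against the distance from the Trim66 start in kb. The 3 Adar peaks (green) lie opposite the long KO-only peak of Chrnb2 (orange) in both lists, and the 6 WT-only peaks of Trim66 (blue) lie between shared peaks (grey).

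Cngb1 (ENSMUSG00000031789) lies on the minus strand of chromosome 8, from 95239045 to 95306585. Both lists had peaks in the middle of the gene and near its end, and the WT list alone had peaks in its first part. A pair of long peaks overlapped along most of their length in both lists. The first spanned 95281580 to 95286656 in the KO list (fold 9.41, log10 FDR -12.1) and 95281580 to 95286626 in the WT list (fold 17.3, log10 FDR -11.3). The second spanned 95277758 to 95281430 in the KO list (fold 10.4, log10 FDR -7.15) and 95275796 to 95281460 in the WT list (fold 10.2, log10 FDR -3.45). In both lists these long peaks were annotated to the 5' UTR of the transcript ENSMUST00000120044. The WT-only peaks in the first part of the gene were annotated to other transcripts, ENSMUST00000093268 and ENSMUST00000133716. Near the gene end, a KO peak of 91 bases (fold 2.89) and a WT peak of 61 bases (fold 8.33) overlapped by 31 bases.

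Of the 5 WT-only peaks of Cngb1, 4 lay upstream of the first KO peak. The first spanned 95303651 to 95306555 in the 5' UTR (fold 9.26, log10 FDR -1.54). The next spanned 95298788 to 95303591 and was annotated as coding (fold 4.63, log10 FDR -0.733). They stood 59 bases apart. Then came a peak of 3110 bases (fold 5.55, log10 FDR -2.68) and a peak of 121 bases (fold 2.14, log10 FDR -1.19), both annotated to the 3' UTR of transcripts although they lay 12511 and 15830 bases from the gene start. The first KO peak began 19929 bases from the gene start. The remaining WT-only peak was a coding peak of 61 bases near the gene end (fold 3.15, log10 FDR -1.19). Only 2 of the 5 had an FDR of 0.05 or below. These spans run from first to last base and take in introns, so that 11001 bases in WT-only peaks are not 11001 bases of transcript.

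Chrnb2 (ENSMUSG00000027950) lies on the minus strand of chromosome 3, from 89746195 to 89764632 in the files. It had 8 KO and 3 WT peaks, none of them with an FDR below 0.001. The only overlap was in the 3' UTR, where a KO peak of 420 bases (89753510 to 89753929, fold 9.92, log10 FDR -1.71) held a WT peak of 91 bases (89753510 to 89753600, fold 3.24, log10 FDR -0.98). In the coding exons, KO-only peaks of 151 bases (fold 4.96, log10 FDR -1.91) and 121 bases (fold 3.61, log10 FDR -0.909) stood 118 bases apart. A WT-only coding peak of 60 bases (fold 2.39, log10 FDR -1.54) stood 149 bases from the nearer of them. Peaks of both lists thus crowded into the same stretch of coding sequence without sharing a base.

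In the 3' UTR of Chrnb2, 4 short KO-only peaks of 61 to 181 bases had folds of 2.05, 2.71, 2.71 and 4.06. Of these only the peak of 181 bases had an FDR of 0.05 or below (log10 FDR -1.50). The WT-only peak there had 61 bases and a fold of 4.63 (log10 FDR -0.926), and it lay 448 bases from the nearest KO peak. The longest KO-only peak of the gene spanned 4474 bases (89748110 to 89752583), with a fold of 1.70 and a log10 FDR of -2.83. It held 4474 of the 5200 bases in KO-only peaks of Chrnb2.

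This longest peak lay opposite peaks of another gene. Adar, an adenosine deaminase that edits double-stranded RNA, is transcribed from the plus strand and had 3 peaks in each list on the bases opposite to it. The Adar peak with the lowest FDR there had a fold of 6.82 (log10 FDR -176) in the KO list and 7.69 (log10 FDR -122) in the WT list. In RefSeq (GRCm38.p6) Chrnb2 ends at 89753448, which leaves this peak outside the gene, and Adar runs to 89753455. The gene span in the files reaches 7253 bases further. The libraries were strand-marked, per the labels' protocols, but the sources used here do not give the strand setting of the peak calls. Whether the listed Chrnb2 signal there came from Adar reads was not tested. With overlap counted on either strand, Chrnb2 had 6 KO-only peaks. The other 55 peaks of the 5 genes had no peak on the opposite strand.

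Bptf (ENSMUSG00000040481) lies on the minus strand of chromosome 11, from 107033081 to 107132127. It had the peaks with the lowest FDR among the members, and these were shared. A peak across coding exons spanned 107095729 to 107111620 in the KO list (fold 7.55, log10 FDR -70.6) and 107095819 to 107111530 in the WT list (fold 5.42, log10 FDR -44.6). A peak in the 3' UTR spanned 107034938 to 107035777 in the KO list (fold 5.64, log10 FDR -68.8) and 107034938 to 107035747 in the WT list (fold 3.81, log10 FDR -29.9). The overlap took up 98.9% and 96.4% of these KO peaks and 100% of both WT peaks. Between them, KO peaks of 5213 bases (fold 4.71, log10 FDR -168) and 750 bases (fold 5.04, log10 FDR -53) overlapped the same WT peak of 1769 bases (fold 4.14, log10 FDR -113). Of the longer KO peak, 16.7% lay on the WT peak. The rest of that span had no WT peak of Bptf, and the overlap rule counts the whole KO peak as shared. The part of it that is exonic was not analysed here.

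The 6 KO-only peaks of Bptf were small beside these. They covered 666 bases, against 22695 bases in its shared KO peaks. The peak at the gene end in the 3' UTR (151 bases, fold 10.8, log10 FDR -1.92) had the highest fold of the gene. A pair of intronic peaks of 121 bases (107043183 to 107043303, fold 2.83, log10 FDR -4.52) and 61 bases (fold 3.50, log10 FDR -2.56) stood 89 bases apart. In coding exons, peaks of 61 bases had folds of 1.66 (log10 FDR -2.57) and 1.61 (log10 FDR -3.09). The peak of fold 1.61 stood 268 bases from the end of a shared WT peak. The peak of 211 bases at the gene start (fold 3.91, log10 FDR -1.09) was the only KO-only peak of Bptf with an FDR above 0.05.

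Side by side, the genotype-only peaks of the members were near other genotype-only peaks at an FDR of 0.05. At an FDR of 1e-05 their share was lower in both lists, on few peaks. An FDR of 0.05 or below was listed for 10 of their 16 KO-only peaks, where 56.2% of all KO-only peaks had one, and for 10 of their 19 WT-only peaks, where 60.3% of all WT-only peaks had one. An FDR of 1e-05 or below was listed for 1 KO-only peak and 0 WT-only peaks of the members, against 9.63% of all KO-only and 10.7% of all WT-only peaks. Among the shared peaks of the members, 6 of 11 KO peaks (54.5%) and 4 of 10 WT peaks (40%) had an FDR of 1e-05 or below, against 62.3% of all shared KO and 62.5% of all shared WT peaks. All of these lay in Bptf and Cngb1. No member peak of Trim66 or Chrnb2 in either list reached that limit.

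**Figure D3:**
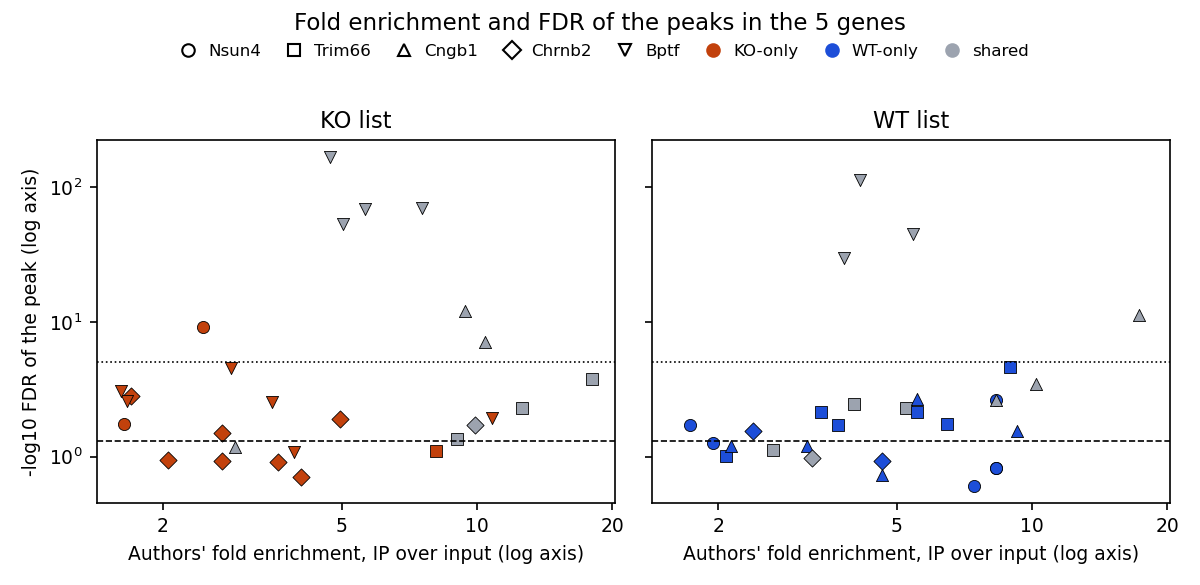
Each point is a peak of the KO list (left) or the WT list (right), with the authors' fold enrichment of IP over input on a log axis and the -log10 FDR of the peak on a log axis. Symbols give the gene and colours the kind of peak, and the dashed and dotted lines mark an FDR of 0.05 and of 1e-05. The 4 KO and 3 WT peaks at the top are shared peaks of Bptf, and the only genotype-only point above the dotted line is the long KO-only peak of Nsun4.

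Short spans were frequent among the members. A span of 61 bases or less was listed for 5 of their 16 KO-only peaks, against 15.9% of all KO-only peaks, and for 8 of their 19 WT-only peaks, against 17.2% of all WT-only peaks. The median span was 121 bases for the members' KO-only and 151 bases for their WT-only peaks, against 180 and 175 bases over all such peaks. The median fold was 2.77 for the members' KO-only peaks and 4.51 for all KO-only peaks, and 4.63 for WT-only peaks of the members and of the whole list. These are descriptions of 35 peaks in 5 genes, and peaks of 1 gene are not replicates.

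By position, the 3' UTR took 8 of the 16 KO-only peaks and 12 of the 19 WT-only peaks of the members, a class with 36.6% of all KO-only and 38.3% of all WT-only peaks. Single genes weighed heavily here. All 6 WT-only peaks of Trim66 were among the 12, and most of the 8 were of Chrnb2, with its long peak opposite Adar. Some peaks of Nsun4 and Cngb1 were put in this class although they lay far from the gene end. Coding exons held 6 KO-only and 5 WT-only peaks, the 5' UTR 0 and 2, and introns 2 and 0. The coding class took in the KO-only peak that began at the annotated start of Bptf. None lay in noncoding exons, where 17.5% of all KO-only and 27.3% of all WT-only peaks lay. The whole lists also hold predicted genes and RIKEN clones, while the members are named genes that encode proteins. The position shares of members and lists are thus over unlike sets of genes. A peak of the other list in the same gene lay within 200 bases of 2 KO-only and 3 WT-only peaks of the members. In the whole KO list this was so for 1101 of 6240 genotype-only peaks (17.6%), and in the whole WT list for 1085 of 7139 (15.2%). These totals include peaks in genes without any peak of the other list, which could not qualify. With such genes left out, the base was 4592 peaks in the KO list and 4580 in the WT list. All 16 and 19 peaks of the members had a peak of the other list in their gene. On this like base the members had the lower share in both lists, though on few peaks. The median distance was 1390.5 bases for KO-only and 897 bases for WT-only peaks of the members, against 837 and 778 bases over all genotype-only peaks with a peak of the other list in their gene.

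Repeated values were frequent among the genotype-only peaks of both lists, and the members' KO-only peaks had them less often. At least 10 peaks of the same list had exactly the same fold, p and FDR as 4 of the 16 KO-only peaks and 11 of the 19 WT-only peaks of the members, themselves counted. Over the lists this was true of 53.8% of the KO-only peaks and 50.1% of the WT-only peaks, and of 18.7% of the shared KO peaks and 18% of the shared WT peaks. In Nsun4, both WT-only peaks of fold 8.33 and log10 FDR -0.82 shared their values with 447 WT peaks in all. The peak at the Nsun4 start had the same fold, p and FDR as the shared WT peak at the end of Cngb1, and 44 WT peaks had them in all. The reads behind such values are not known here.

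Genes like the members were few. In the KO list 45 genes had 4 KO-only peaks, just under the limit, and 11 genes had 5. In the WT list 51 genes had 4 WT-only peaks and 6 genes, Cngb1 among them, had 5. In all 32 genes reached 5 in 1 list, of which 6 had clone-type names (predicted genes and RIKEN clones). Besides the members 21 genes with other names did so. On the KO side these 18 genes were Ttn (10 KO-only peaks), Zfhx3, Adgrv1, Dst, Nbea, Hnrnpf and Dnhd1 (6 each), and Pkdrej, Nlrp14, Ttc28, Pclo, Iqsec1, Kcnq1ot1, Rimbp3, Mthfsd, Celsr2, Ank3 and Stard9 (5 each). On the WT side they included Fsip2 (6) and Rp1 (5). Chrnb2 thus stood after Ttn, the gene of the giant muscle protein titin, on the KO side. Nsun4 and Trim66 had as many WT-only peaks as Fsip2, a gene of the sperm fibrous sheath.

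**Figure D4:**
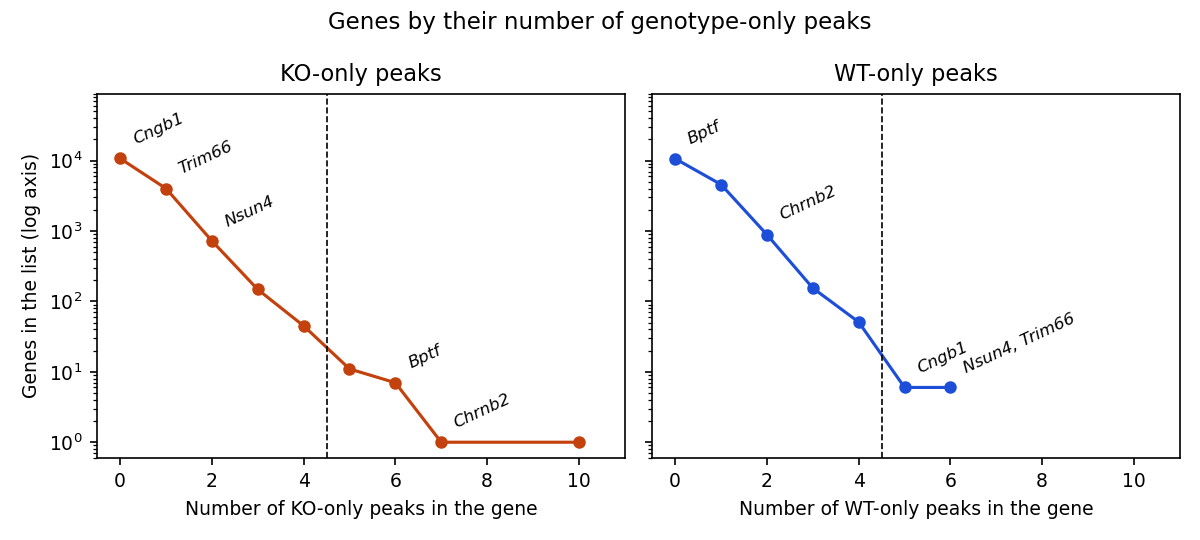
Number of genes in the KO list (left) and in the WT list (right), on a log axis, by their number of KO-only or WT-only peaks. The dashed line stands between 4 and 5 peaks, and the names mark the counts of the 5 members in each list. Most genes have 0 or 1 such peak, and each member stands right of the line in 1 list alone.

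As a share of all peaks of a gene, the members differed more. Genotype-only peaks were 100% of the 8 peaks of Nsun4, 81.8% of the 11 of Chrnb2, 53.8% of the 13 of Trim66, 46.2% of the 13 of Bptf and 45.5% of the 11 of Cngb1. There were 1538 genes with at least 8 peaks in both lists together, with a median share of 12.5%. Of these genes 76, or 4.94%, stood at or above the share of Cngb1, and Nsun4 was the only 1 at 100%. The shares are made from the counts that chose the members, so their high place was largely set by that choice. The floor of 8 peaks is the total of Nsun4. Nlrp14 and Rp1, with 100% of 5 peaks each, fell below it. Other genes with at least 8 peaks and no clone-type name were ranked by their share over 2 lists. The highest were Elfn2 (77.8% of 9 peaks), Ccdc114 and Zfp846 (75% of 8 peaks each), and Adgrv1 and Fsip2 (63.6% of 11 peaks each). Unlike Trim66 and Cngb1, Elfn2 had peaks of both kinds in nearly equal number, with 4 KO-only and 3 WT-only peaks.

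No relative or partner of the members had more than 2 genotype-only peaks in a list. Of the cytosine RNA methyltransferases and their partners 7 of 9 had a peak, 4 of them with KO-only and 6 with WT-only peaks, Nsun4 included. Over all genes with a peak, KO-only peaks were found in 27.9% and WT-only peaks in 32% of genes. Mterf4, the partner of Nsun4 in mitochondria, had 5 peaks in each list, 4 of them shared in each. Nsun7, a family member known for a role in sperm motility, had 2 KO-only peaks, 1 in the 5' UTR (fold 9.92, log10 FDR -3.28) and 1 in the 3' UTR (fold 4.29, log10 FDR -1.84). It had 1 WT-only peak, also in the 3' UTR (fold 3.39, log10 FDR -3.62). Trdmt1, a transfer RNA methyltransferase, had 0 KO and 2 WT peaks, with folds of 12 and 1.57. Nsun6, another transfer RNA methyltransferase, had 2 WT-only peaks in the 5' UTR, with folds of 3.09 and 6.48, that overlapped each other.

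In the TIF1 family 3 of 4 genes had a peak. Trim24 had 1 KO-only peak in the 5' UTR (fold 7.22, log10 FDR -2.20), and Trim33 had shared peaks alone, so that Trim66 was the only 1 of the family with a WT-only peak. Among 6 genes of cyclic nucleotide-gated channels 4 had a peak, 2 of them a KO-only peak and 1, Cngb1, a WT-only peak. Trim66 and Cngb1 were chosen for their WT-only peaks. A WT-only peak was found in 33.3% of the TIF1 genes and 25% of the channel genes with a peak, against 32% of all genes. For a KO-only peak the shares were 66.7% and 50%, against 27.9% of all genes, on few genes. Cnga2, the olfactory alpha subunit, had 2 KO-only peaks of fold 7.22 (log10 FDR -0.572 and -0.707) and no WT peak.

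Of 18 nicotinic receptor subunits and assembly factors 11 had a peak, 5 of them with KO-only and 5 with WT-only peaks. Both counts include Chrnb2, and over all genes with a peak the shares were 27.9% and 32%. No gene of this list except Chrnb2 had more than 1 genotype-only peak in a list. Chrna4, whose product pairs with that of Chrnb2 in the brain, had 1 KO-only peak (fold 3.61, log10 FDR -2.74), and its other 5 KO and all 3 WT peaks were shared. Of 10 genes of the NURF complex and related remodelers 8 had a peak, and all 8 had a shared peak. KO-only peaks were found in 5 of them, Bptf included, and WT-only peaks in 4. Rbbp4, a histone-binding subunit, had 2 WT-only peaks (folds 1.47 and 4.63). Baz1a, a partner of the remodeler ATPase Smarca5, had 2 KO-only peaks, of which a coding peak of fold 3.53 had a log10 FDR of -21.9, and 1 WT-only peak (fold 6.48).

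Limits on the FDR lowered the summed number of genotype-only peaks of the members. With both lists limited to an FDR of 0.05, Trim66 had 5 WT-only and Bptf 5 KO-only peaks, and the other members had fewer. Chrnb2 then had 4 KO-only, Cngb1 3 WT-only and Nsun4 2 WT-only peaks. With both lists limited to an FDR of 1e-05, no member had 5 genotype-only peaks, and the members together had 2 KO-only peaks, 1 in Nsun4 and 1 in Cngb1, and 0 WT-only peaks. The Cngb1 peak was a shared peak whose WT partner (log10 FDR -3.45) missed that limit. A wider search for partners, within 200 bases or on either strand, left all 5 members with at least 5.

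**Figure D5:**
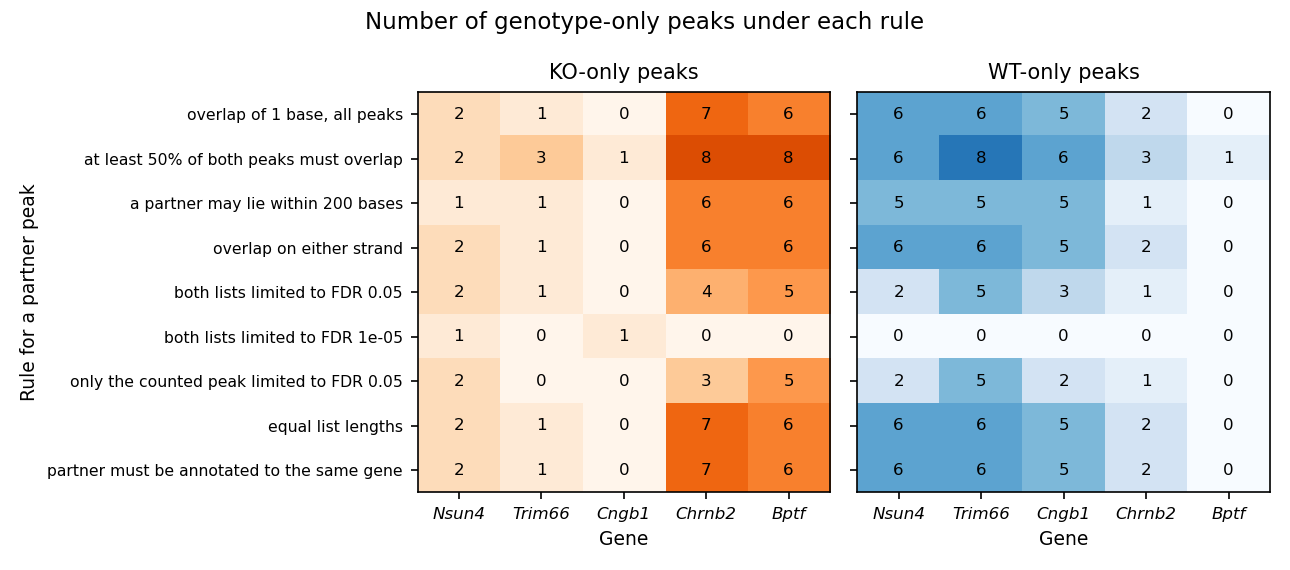
Number of KO-only peaks (left) and WT-only peaks (right) of each gene under each rule for what counts as a partner, with darker fields for higher numbers. Summed over the 5 genes, the rows with an FDR limit hold the lowest numbers and the row with 50% overlap of both peaks the highest (22 KO-only and 24 WT-only), while single genes can depart from this order.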

How the data were processed

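Per the labels' protocols, poly(A) RNA from testis was fragmented and pulled down with an m6A antibody, and paired-end libraries were made with dUTP to mark the strand. The authors deposited 1 peak list per genotype. The submitters' processing notes name HISAT2, StringTie, HOMER, fastp and FastQC, and the build GRCm38. The peak caller, and whether replicates were pooled, are not given in the sources used here. Per the file headers, each peak has a fold enrichment, which is a ratio of IP over input, and a log10 p-value and log10 FDR, handled as a score because the smallest run off the scale. Spans were recomputed from start to end, positions are counted from 1, and genes and position classes are the authors'.

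A peak was shared when at least 1 base overlapped a same-strand peak of the other list, whatever its gene. The code was tested on simulated peaks, and python 3.11.15 with pandas 2.3.3 was used. The named genes were the members, Alkbh5, genes of the related lists with 2 or more genotype-only peaks in 1 list (up to 3 each), other genes with 5 or more, and the 5 with the highest share of genotype-only peaks among genes with at least 8 peaks. Of the genes with 5 or more, 1 is not reported here. Mterf4, Trim24, Trim33, Chrna4 and Adar were named after their values were seen. The motif search at gene starts and the count of repeated values were also chosen then. The members and lists were chosen with earlier results of these data known. No p-value was computed, since no value per library was used. RefSeq windows and spans (GRCm38.p6) were matched by symbol for all 5 members.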

Additional observations from a re-analysis of the deposited data

How the results depend on the processing

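The members' 16 KO-only, 19 WT-only, 11 shared KO and 10 shared WT peaks were recounted under 8 other rules. At equal list lengths, with partners within 200 bases, on either strand or of the same gene, all 4 totals stayed within 1.5 times. With both lists at an FDR of 1e-05 the totals were 2, 0, 5 and 4 in that order. With both lists at 0.05, WT-only peaks numbered 11. With the limit of 0.05 on the counted peak alone, 10 KO-only and 10 WT-only peaks were left. The fall follows from the peaks removed. With 50% of both peaks required to overlap, 5 KO and 5 WT peaks were shared, and all 5 genes still had 5 or more genotype-only peaks in 1 list. Of 160 counts for single genes, 42 moved by more than 1.5 times. No paired analysis was possible because the lists hold no values per library. For the same reason replicates were not left out in turn, and the motif search in peaks was not run because no genome was used here. The depth of the lists is unknown.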

Other observations

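All 5 members lie on the minus strand, while 49.6% of all listed peaks do. The members were not chosen by strand, and with 5 genes this is a description only. Nlrp14, a gene of the germ line, and Rp1, a gene of photoreceptors, had 5 genotype-only peaks each, those of Nlrp14 in the KO list and those of Rp1 in the WT list, and neither had a peak in the other list.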
